A study of Mus musculus with 24 samples.

Results

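The 9 genes described here are transcriptional targets of p53 that respond to cell damage, namely Cdkn1a, Mdm2, Ccng1, Bax, Bbc3, Phlda3, Sesn2, Eda2r and Trp53inp1. They were taken by their symbols from the 36333 genes in the expression table, and all 9 were among the 17267 that reached a mean level of 0.5 TPM and were tested. TPM, the abundance of a transcript scaled by its length and to a fixed total per library, is the unit of all levels given here. Eda2r reached this limit only through the injured mice, since its mean in sham mice was 0.232 TPM. It therefore had to be higher in injured mice to be tested, and its differences from sham are given as a description, outside the counts over the other 8 genes.

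RNA was sequenced from 24 male mice at 5 dpi (days after traumatic brain injury, TBI), with 1 library per mouse. TBI was a controlled cortical impact through an opened skull, and injured mice received vehicle (n = 5), PLX3397 (n = 5), Anakinra (n = 5) or PLX3397+Anakinra (n = 5). PLX3397, an inhibitor of the receptor CSF1R on which microglia depend, was given in food at 290 mg/kg from 90 min after the impact, and Anakinra, which blocks the interleukin-1 receptor IL1R1, was injected subcutaneously at 100 mg/kg. The 4 sham mice had a skin incision without craniotomy or impact and received vehicle (so that opening of the skull is part of the difference between TBI and sham). All mice were 12 to 16 weeks old by their labels, which call the strain C57BL6N, whereas the methods name C57BL/6JRj. The labels give the tissue as cortex, while the methods describe lesion and perilesional tissue with cortex, striatum, dorsal hippocampus and thalamus. Marker genes of striatum, thalamus and dentate gyrus summed to between 733 and 1207 TPM in the 24 libraries.

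p53 is a transcription factor that is kept scarce by degradation and accumulates when DNA is broken, ribosomes are disturbed or cells are otherwise stressed. It then raises genes that halt the cell cycle, genes that open the mitochondrial route to apoptosis, and genes that limit its own activity. In the injured brain the pathway is known both from neurons at risk of death and from glia and immune cells that enter the cell cycle, and a bulk library averages over all of them. Fewer cells of a type and less RNA per cell cannot be told apart in these data.

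p53 binds a pair of 10-base elements with a short gap between them, and promoter sequences from 250 bases before to 50 bases after the annotated start were searched for this motif (the p53 decamer consensus, which reads the same on both strands). RefSeq (GRCm38.p6) held such windows for 8 of the 9 genes, all but Trp53inp1, and 11 windows in all. A decamer without mismatch was present in a window of 4 of these genes, Cdkn1a, Ccng1, Mdm2 and Bax, and in 8.36% of 32851 mouse promoters of the same length. A pair of decamers with at most 1 mismatch in all and a gap of up to 13 bases was present in windows of 2 genes, Cdkn1a and Ccng1, and in 0.627% of all promoters. Of the 2 windows of Cdkn1a, which belong to separate annotated starts, the upstream one holds its match and the other has no decamer. The stretches with these matches are shown 5′ to 3′. They place the motif within windows of these 4 genes, while the windows of Bbc3, Phlda3, Sesn2 and Eda2r held no decamer without mismatch. Any relation of these matches to the expression results was not tested. Capitals mark decamers without mismatch and those of the pair with the fewest mismatches.
Cdkn1a (chr17:29090886-29090957, + strand, first decamer 73 bases before the upstream start): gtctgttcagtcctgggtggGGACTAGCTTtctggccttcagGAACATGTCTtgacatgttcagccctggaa
Ccng1 (chr11:40755442-40755501, - strand, 195 bases before the start): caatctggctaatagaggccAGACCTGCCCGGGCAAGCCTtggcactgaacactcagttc
Mdm2 (chr10:117710915-117710964, - strand, 186 bases before the start): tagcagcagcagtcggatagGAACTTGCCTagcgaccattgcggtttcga
Bax (chr7:45467070-45467119, - strand, 201 bases before the start): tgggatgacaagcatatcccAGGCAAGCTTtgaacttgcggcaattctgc
The 2 decamers of Cdkn1a in capitals lie 12 bases apart and have no mismatch, and those of Ccng1 adjoin each other with 1 mismatch. In Cdkn1a the 10 bases directly after the second decamer also fit the motif with 1 mismatch. This adjoining pair meets the same rule, although its second part is left in lower case. The GC box GGGCGG, searched on both strands, was found in 9 of the 11 windows and in 35.7% of all promoters, and TATAAA in 1 window (Eda2r) and in 13.6% of all promoters. These matches describe the letters of the windows and were not measured as binding sites, and sites outside the windows were not searched.

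TBI was accompanied by higher expression of 7 of the 8 genes counted at 5 dpi. In vehicle-treated mice Cdkn1a was 2.09 times the sham mean, Trp53inp1 and Bbc3 were 1.65 and 1.60 times the sham mean, and Bax, Phlda3, Mdm2 and Ccng1 were between 1.20 and 1.26 times. Sesn2 had the smallest difference and did not pass the test. By the test used throughout (limma on log2(TPM + 1), adjusted over all genes), 26.6% of all genes were higher in vehicle than in sham mice and 27.7% were lower. The median log2 difference of the 8 genes was 0.32, against -0.01 over all genes tested.

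**Figure D1:**
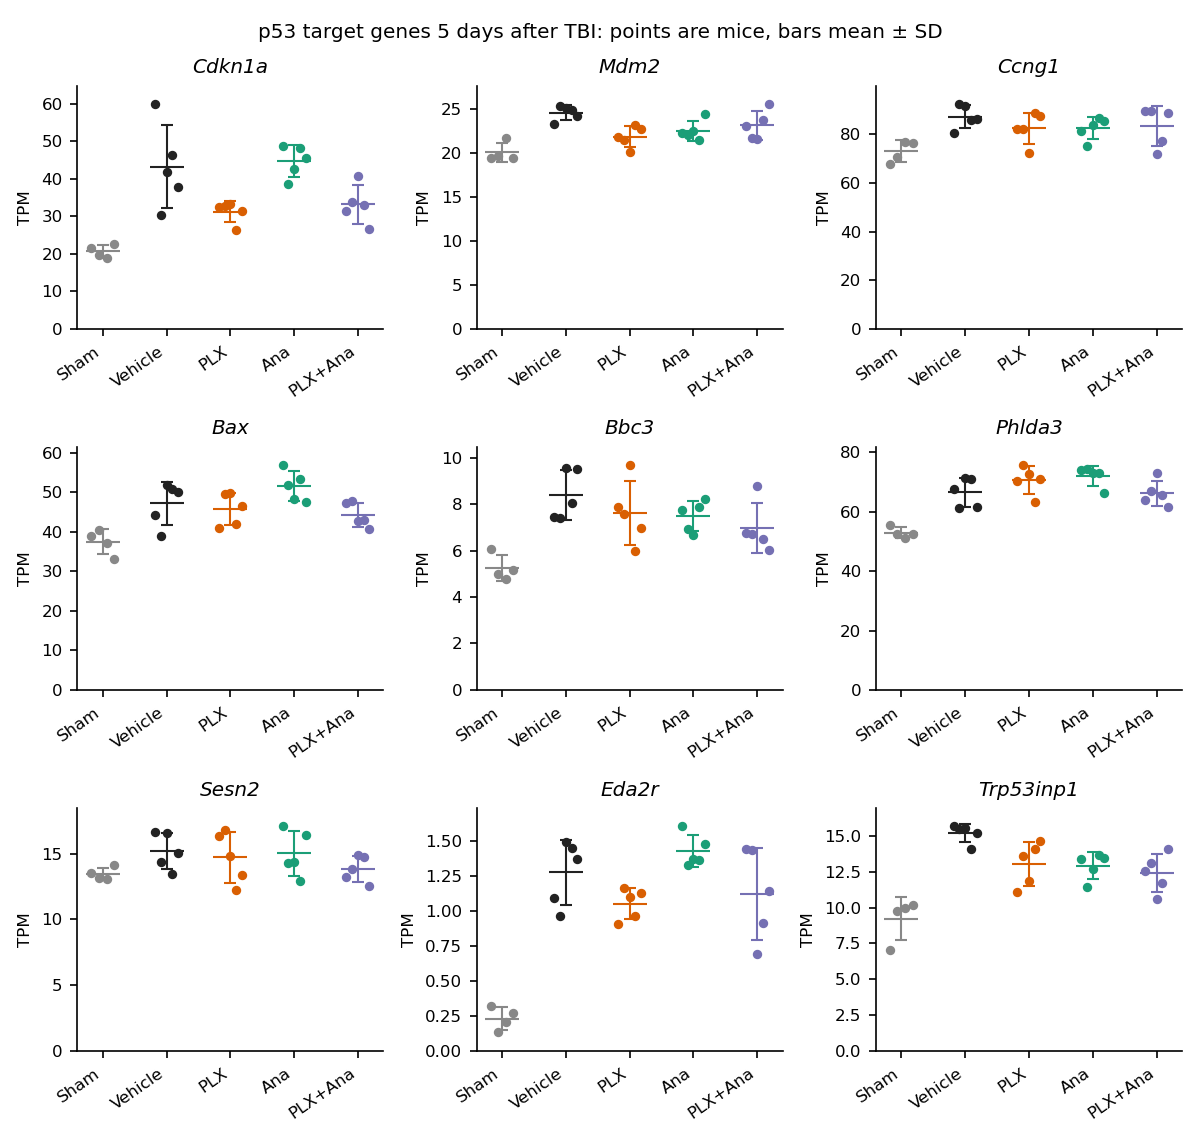
Expression of the 9 genes in TPM (vertical axes, from 0) in each mouse, by group, with the mean and SD of each group as bars. Cdkn1a lies at 18.9 to 22.6 TPM in sham mice and at 26.4 TPM or more in every injured mouse, and Eda2r separates the same way, whereas the Sesn2 ranges of all groups overlap.

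Cdkn1a encodes p21, an inhibitor of cyclin-dependent kinases that stops the cell cycle, and lies at chr17:29090979-29100722 (GRCm38.p6, as for all genes here, which are all protein coding). Its expression was 21.6, 19.7, 18.9 and 22.6 TPM in the sham mice and 59.9, 30.2, 41.8, 46.4 and 37.7 TPM in the vehicle mice. Every vehicle mouse was above every sham mouse, and the vehicle mice differed among themselves far more than the sham mice did, with SDs of 11.1 and 1.71 TPM. The log2 difference was 0.99 (SE 0.13, adjusted p = 5.42e-07), higher in 5 of 5 vehicle mice, and 6.27% of all genes tested had a larger one. Cdkn1a was the single member that also passed the stricter rule of an unadjusted p below 0.05, a ratio of means above 2 and a difference above 4 TPM, which 5.11% of all genes passed upward.

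Mdm2 and Ccng1 belong to the feedback on p53. Mdm2 (chr10:117688875-117710758) encodes the ubiquitin ligase that marks p53 for degradation, and Ccng1 (chr11:40748552-40755309) encodes cyclin G1, which activates Mdm2 through a phosphatase. Mdm2 was 19.4, 19.6, 21.7 and 19.3 TPM in sham mice and 23.2, 25.3, 25.0, 24.9 and 24.2 TPM in vehicle mice, without overlap (log2 difference 0.28, SE 0.05, adjusted p = 0.000113). Ccng1 was 67.7, 70.7, 76.9 and 76.4 TPM in sham mice and 80.4, 92.4, 91.4, 85.8 and 86.1 TPM in vehicle mice (log2 difference 0.26, SE 0.07, adjusted p = 0.00258). The groups were apart for Ccng1 as well, although the highest sham and the lowest vehicle mouse lay within 1 SD of each other.

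Bax and Bbc3 act on mitochondria. Bax (chr7:45461695-45466903) forms the pore that releases cytochrome c, and Bbc3 (chr7:16308398-16318334), also called Puma, frees Bax from its inhibitors. Bax was 38.9, 40.4, 37.2 and 33.1 TPM in sham mice and 44.3, 39.0, 51.8, 50.9 and 50.2 TPM in vehicle mice, where vehicle mouse J17B lay within the sham range (log2 difference 0.32, SE 0.08, adjusted p = 0.00144). Bbc3 was 6.07, 4.99, 4.77 and 5.15 TPM in sham mice and 7.46, 7.40, 9.55, 8.05 and 9.501 TPM in vehicle mice, without overlap (log2 difference 0.59, SE 0.11, adjusted p = 7.06e-05). On the log2 scale the difference of Bbc3 was thus larger than that of Bax, from a level that per length was lower in every group.

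Phlda3 (chr1:135766085-135769134) encodes a lipid-binding protein that restrains the kinase Akt, and Sesn2 (chr4:132492804-132510456) encodes sestrin 2, a stress-induced brake on the growth kinase complex mTORC1. Phlda3 was 55.4, 52.6, 51.3 and 52.5 TPM in sham mice and 67.6, 61.1, 71.4, 71.0 and 61.7 TPM in vehicle mice, without overlap (log2 difference 0.32, SE 0.06, adjusted p = 3.4e-05). Sesn2 was 13.5, 13.1, 13.1 and 14.1 TPM in sham mice and 16.6, 14.4, 16.6, 13.5 and 15.025 TPM in vehicle mice. These ranges overlap, and the log2 difference of 0.16 (95% interval -0.02 to 0.34, adjusted p = 0.122) was not detectable against the spread between mice.

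Eda2r (chrX:97333837-97377234) encodes a receptor of the tumour necrosis factor receptor family that binds ectodysplasin A2, and Trp53inp1 (chr4:11156441-11174379) encodes a nuclear stress protein that promotes the activation of p53. Eda2r was 0.323, 0.132, 0.203 and 0.268 TPM in sham mice and 1.10, 0.967, 1.496, 1.45 and 1.37 TPM in vehicle mice. The groups were far apart at a low level, with a ratio of means of 5.51. The log2 difference of 0.88 (SE 0.11) is on the log2(TPM + 1) scale, which understates this ratio at such levels. With a pseudocount of 0.1 the log2 difference was 2.07. Trp53inp1 was 7.01, 9.75, 9.98 and 10.2 TPM in sham mice and 15.7, 15.5, 15.6, 14.1 and 15.2 TPM in vehicle mice (log2 difference 0.68, SE 0.09, adjusted p = 1.25e-06). Sham mouse J07 stood below the other 3, and the lowest vehicle mouse was still well above the highest sham mouse.

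In 6 of the 8 genes counted, all but Bax and Sesn2, the vehicle and sham groups did not overlap and vehicle was higher, as in 21.7% of all genes tested. Each of the 7 calls at the adjusted p held with each mouse left out in turn and in the other models and scalings.

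**Figure D2:**
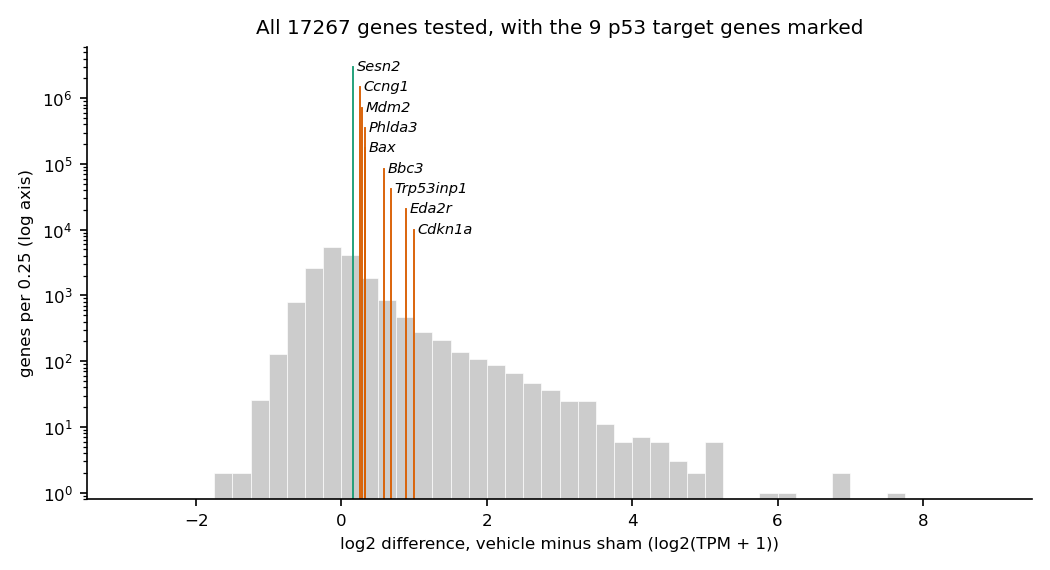
Distribution of the log2 difference between vehicle and sham mice (horizontal axis) over all 17267 genes tested (grey bars, logarithmic vertical axis), with the 9 genes as lines whose heights only spread the labels. Cdkn1a at 0.99 and Eda2r at 0.88 lie in the upper shoulder of a distribution that reaches 7.58, and Sesn2 (green, not called) lies at 0.16.

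The tissue itself changed with injury. All 8 microglial markers, Aif1 among them, rose in vehicle over sham mice and their summed level went from 324 to 341 TPM in sham mice to 1197 to 1525 TPM in vehicle mice. All 6 markers of activated phagocytes rose too, from 37.2 to 40.5 TPM in sham mice to 2469 to 5887 TPM in vehicle mice, while all 8 neuronal markers fell, from 8020 to 8477 TPM to 4794 to 5713 TPM. Astrocyte markers rose in 6 of 6 (Gfap by 4.06 on the log2 scale), fibroblast markers in 5 of 5, oligodendrocyte progenitor markers in 4 of 4, oligodendrocyte markers in 5 of 6 and endothelial markers in 5 of 6. Of the markers of monocytes and neutrophils 4 could be tested and all 4 rose (S100a8 2.54, S100a9 1.63, Ccr2 1.51 and Ly6c2 1.03). Their list summed to 0.660 to 3.69 TPM in sham and 6.34 to 37.7 TPM in vehicle mice. Sham means were 0.115 TPM for Ccr2, 0.137 TPM for Ly6c2 and, among the phagocyte markers, 0.242 TPM for Itgax and 0.165 TPM for Msr1. Like Eda2r, these 4 genes passed the limit of 0.5 TPM only through injured mice, so their rise is a description. The sums of monocyte and neutrophil markers were also taken in the other arms. In the list of monocytes and neutrophils the neutrophil marker Ly6g was at 0 in all libraries of the PLX3397 and PLX3397+Anakinra groups. In the list of lymphocytes the T cell marker Cd3e was at 0 in all sham libraries. The lymphocyte list summed to 15.2 to 16.5 TPM in sham and 14.7 to 18.8 TPM in vehicle mice. Of its 7 markers only 1, Cd4, was high enough to be tested, and its means alone were 15.5 TPM in sham and 16.4 TPM in vehicle mice. The sum thus mostly gives the level of Cd4 and says little about the other markers. The part of these changes in the higher level of the p53 targets was not tested.

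Genes around the pathway are given list by list by their counts and medians, and some genes stand in 2 lists. The median over all genes tested was -0.01. Of 20 tested p53 family members and regulators, 5 rose and 4 fell (median log2 difference 0.10), shares that do not exceed those of all genes in either direction. The largest changes were those of the checkpoint kinases Chek2 (1.21) and Chek1 (0.60), of Cdkn2a (0.95), which yields an inhibitor of Mdm2, and of Ppp1r13b (-0.37), a cofactor of p53. Trp53, which encodes p53 itself and is named here outside the naming rule, was 30.9 ± 2.47 TPM (SD, n = 4) in sham and 38.7 ± 3.04 TPM (SD, n = 5) in vehicle mice (log2 difference 0.32, SE 0.06, adjusted p = 0.000123).

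Of 45 other p53 targets, 22 rose and 8 fell, with a median of 0.19. Among those with large differences were Thbs1 (3.45), Ckap2 (2.85) and Tap1 (1.90), genes of the extracellular matrix, the mitotic spindle and antigen presentation that are also used by immune, vascular or dividing cells. Of 23 BCL2 family and caspase genes, 15 rose and 3 fell (median 0.42), led by Bcl2a1b (4.47) and Bcl2a1d (2.33), inhibitors of apoptosis in blood-derived cells, and by Casp8 (1.76). Bcl2a1b and Bcl2a1d are near-identical copies, and the reads may have been split between them in ways that the table does not show.

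Of 25 genes of DNA damage sensing and repair, 11 rose and 2 fell (median 0.13), with Chek2, Brca1 (0.89) and Chek1 among those that rose. Of 12 genes of the ATF4 and CHOP stress response, 8 rose and 2 fell (median 0.39), led by Atf3 (3.84), Nupr1 (1.34), Trib3 (0.82) and Slc7a11 (0.72). Of 6 further CDK inhibitors, 4 rose and 0 fell (median 0.49), with Cdkn2c at 1.79, Cdkn2a at 0.95, Cdkn2b at 0.59 and Cdkn1c at 0.39. The 16 proliferation genes had a median of 2.01, with 15 higher and 1 lower, and Ccnb1 (2.98), Top2a (2.93), Cdk1 (2.91) and Rrm2 (2.55) as the largest. The arrest gene Cdkn1a was thus higher in the same libraries in which genes of dividing cells were higher. Some genes of these lists had sham means below 0.5 TPM, among them Cdkn2a (0.182 TPM), Bcl2a1d (0.200 TPM), Cdk1 (0.393 TPM) and Gdf15 (0.208 TPM). Like Eda2r, such genes were tested only through injured mice, so their rise and their part in the list counts against sham are a description.

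**Figure D3:**
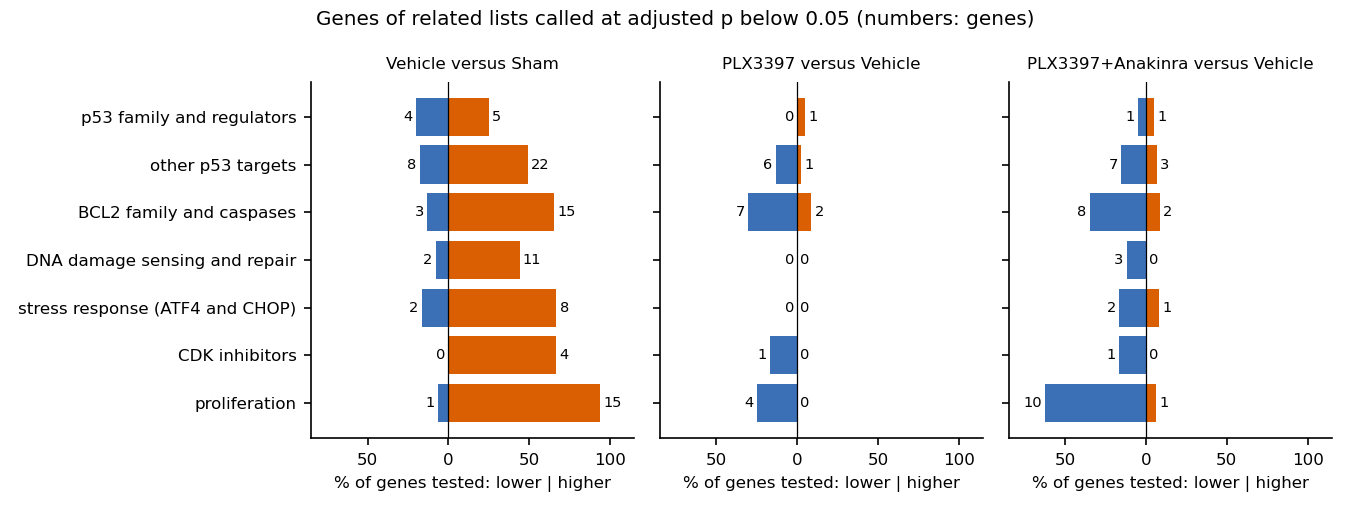
Share of tested genes of 7 related lists that were called higher (orange, to the right) or lower (blue, to the left) in 3 comparisons, with the number of genes beside each bar. Most lists extend to the right in vehicle versus sham mice, with 15 of 16 proliferation genes higher, and the bars of the drug comparisons are shorter and mostly to the left. The counts against sham include genes with a sham mean below 0.5 TPM, such as Cdk1.

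Under each drug treatment most of the genes stayed above sham. With PLX3397, 6 of the 8 genes counted were called higher than in sham mice (all but Mdm2 and Sesn2), against 22.7% of all genes. With Anakinra 7 of 8 were called higher, against 25.1% of all genes, and with PLX3397+Anakinra 7 of 8, against 20.7%, in both cases all but Sesn2. These 3 comparisons and that of vehicle share the 4 sham mice, so they are not independent of each other. The ratio of Cdkn1a to the sham mean was 1.51 with PLX3397, 2.16 with Anakinra and 1.60 with the combination, and that of Eda2r was 4.55, 6.17 and 4.86. Eda2r and Phlda3 were above the sham range in every mouse of the drug arms. Eda2r was 0.905, 1.16, 1.10, 0.963 and 1.13 TPM with PLX3397, 1.61, 1.33, 1.37, 1.37 and 1.48 TPM with Anakinra and 1.45, 1.44, 0.692, 0.911 and 1.14 TPM with PLX3397+Anakinra, all above the highest sham mouse (0.323 TPM). Phlda3 ran from 63.1 to 75.7 TPM with PLX3397, from 66.2 to 74.3 TPM with Anakinra and from 61.7 to 73.0 TPM with the combination, all above the highest sham mouse (55.4 TPM), and its log2 differences from sham were 0.41, 0.44 and 0.32. Among the 8 genes counted, Cdkn1a, Trp53inp1, Phlda3 and Bax did not overlap with sham in any of the 3 arms, and Bbc3 did not overlap with sham under Anakinra. That made 4 of 8 with PLX3397, 5 of 8 with Anakinra and 4 of 8 with the combination. Of all genes, 18.7% were higher than sham without overlap with PLX3397, 21.3% with Anakinra and 16.9% with the combination. Mdm2 with PLX3397 was 21.8 ± 1.21 TPM (SD, n = 5) against 20.02 ± 1.12 TPM (SD, n = 4) in sham mice (adjusted p = 0.0828), and with rescaled TPM this difference was called (adjusted p = 0.0262).

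Over the 5 groups together, limma's F-test called 7 of the 8 genes counted, all but Sesn2 (adjusted p = 0.372), where 51.9% of all genes were called. For Cdkn1a the means ran in the order Anakinra (44.7 TPM), vehicle (43.2 TPM), PLX3397+Anakinra (33.2 TPM), PLX3397 (31.2 TPM) and sham (20.7 TPM), and of these neighbours only PLX3397 and sham were apart by more than the larger of their SDs. For Eda2r the order was the same as for Cdkn1a, with 1.43, 1.28, 1.13, 1.05 and 0.232 TPM. Trp53inp1 ran from vehicle (15.2 TPM) over PLX3397 (13.1 TPM), Anakinra (12.9 TPM) and PLX3397+Anakinra (12.4 TPM) to sham (9.23 TPM), and Phlda3 from Anakinra (72.1 TPM) over PLX3397 (70.6 TPM), vehicle (66.6 TPM) and PLX3397+Anakinra (66.2 TPM) to sham (52.95 TPM). Sham was lowest for all 9 genes, while the order of the injured groups differed between genes.

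**Figure D4:**
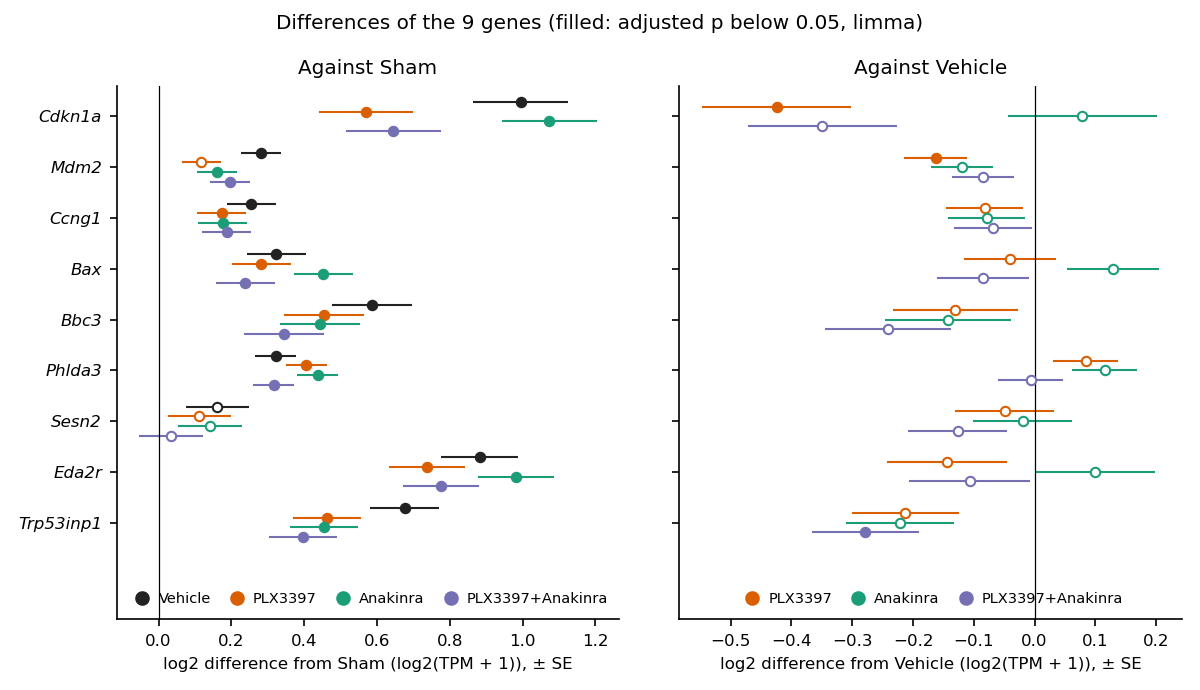
Log2 differences of the 9 genes from sham (left) and from vehicle (right) on the log2(TPM + 1) scale, with SE as bars and one colour per group; filled points have an adjusted p below 0.05 in limma. All points lie above 0 against sham, and against vehicle the filled points are Cdkn1a and Mdm2 with PLX3397 and Trp53inp1 with PLX3397+Anakinra.

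Whether the drugs altered the response was read from the comparisons with vehicle-treated TBI mice, which share the same 5 vehicle mice. PLX3397 was accompanied by lower Cdkn1a and Mdm2, and the other 7 genes did not pass the test. Among all genes, 6.66% were lower with PLX3397 than with vehicle. Cdkn1a was 32.5, 32.6, 33.2, 26.4 and 31.4 TPM in the PLX3397 mice, from just below to just above the lowest vehicle mouse. Its log2 difference was -0.42 (SE 0.12, adjusted p = 0.0273), the mean changed by -27.7%, and 46.8% of the difference in TPM between vehicle and sham mice remained. The groups overlapped because vehicle mouse J17B, at 30.2 TPM, lay below 4 of the 5 PLX3397 mice.

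The call of Cdkn1a with PLX3397 rested on single mice and on the model. Without vehicle mouse J01B, the highest at 59.9 TPM, the log2 difference was -0.30 (adjusted p = 0.0847). The call was also lost without vehicle mouse J18B (adjusted p = 0.0536), vehicle mouse J19B (adjusted p = 0.0761) or PLX3397 mouse J19 (adjusted p = 0.0787). The same held in limma without a filter (adjusted p = 0.0542) and with only the 2 groups in the model (adjusted p = 0.104). The loss was largest in the unequal-variance test on TPM (adjusted p = 0.328), with SDs of 11.1 TPM in vehicle and 2.76 TPM in PLX3397 mice. The direction was the same in all alternatives, from -0.64 to -0.30.

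Mdm2 was 21.8, 21.4, 20.04, 23.2 and 22.6 TPM with PLX3397, and each of these mice was below each vehicle mouse, although by only a small margin between the closest. The log2 difference was -0.16 (SE 0.05, adjusted p = 0.0441), and 4.91% of all genes were lower with PLX3397 without overlap. This call lay close to the threshold and was lost in 11 of 19 alternatives, with adjusted p between 0.0155 and 0.451. It was lost without any single one of vehicle mice J17B, J18B, J19B and J20B or PLX3397 mice J01, J02 and J12, where adjusted p lay between 0.0685 and 0.126. Trp53inp1 was 11.1, 13.6, 11.9, 14.1 and 14.6 TPM with PLX3397, a log2 difference of -0.21 that did not pass after adjustment (SE 0.09, adjusted p = 0.14).

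Phlda3 was the single gene with a higher mean with PLX3397 than with vehicle (log2 difference 0.08, 95% interval -0.03 to 0.19). For Bax the log2 difference was -0.04 (95% interval -0.20 to 0.12), for Sesn2 -0.05 (95% interval -0.22 to 0.12) and for Ccng1 -0.08 (95% interval -0.21 to 0.05). The intervals of Bax, Sesn2 and Ccng1 include 0 and also a decrease of the size measured for Mdm2, so they do not show that these genes were at the vehicle level. Eda2r (-0.14, 95% interval -0.35 to 0.06) and Bbc3 (-0.13, 95% interval -0.34 to 0.08) were measured less precisely.

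Anakinra was accompanied by no called difference from vehicle in the 9 genes by limma, where 0.116% of all genes were called in either direction. At an unadjusted p below 0.05 there were 3, Mdm2 (-0.12), Phlda3 (0.12) and Trp53inp1 (-0.22), and the unequal-variance test on TPM also called 0. No share of all genes at an unadjusted p was computed, so counts at that level, here and below, are descriptions only. Cdkn1a was 48.6, 38.6, 42.7, 48.2 and 45.4 TPM with Anakinra, within the range of the vehicle mice, and its log2 difference was 0.08 (95% interval -0.18 to 0.33). Trp53inp1 was 13.4, 11.4, 12.7, 13.7 and 13.4 TPM, and all 5 mice were below all vehicle mice, as in 1.42% of all genes, but the adjusted p was 0.296.

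PLX3397+Anakinra was accompanied by lower Trp53inp1 than vehicle, at 12.5, 13.1, 10.6, 11.7 and 14.1 TPM (log2 difference -0.28, SE 0.09, adjusted p = 0.0301). The highest of these mice, J17, was level with the lowest vehicle mouse, J19B. Trp53inp1 was the 1 call among the 9 genes, a share near that of all genes, of which 9.60% were lower with the combination than with vehicle. Without overlap 6.62% of all genes were lower, which held for 0 of the 9 genes. The call was lost in 7 of 18 alternatives, among them without vehicle mice J01B, J18B or J20B or combination mice J09 or J10 (adjusted p between 0.0518 and 0.0984).

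Cdkn1a was 31.4, 33.9, 40.8, 33.0 and 26.7 TPM with PLX3397+Anakinra, and its log2 difference from vehicle was -0.35 (SE 0.12, adjusted p = 0.0513). This value was just outside the threshold and passed it in 4 of 18 alternatives, without vehicle mouse J17B (log2 difference -0.47, adjusted p = 0.00397), without vehicle mouse J20B (adjusted p = 0.0489), without combination mouse J09 (adjusted p = 0.024) and with genes of 5 TPM or more only (adjusted p = 0.0448). Bbc3 was 6.76, 6.73, 8.79, 6.50 and 6.01 TPM with the combination (log2 difference from vehicle -0.24, adjusted p = 0.113), and without mouse J09, the highest, the difference was called (-0.32, adjusted p = 0.0371). The mean of all 9 genes was lower with the combination than with vehicle, with a median log2 difference of -0.11 against 0.01 over all genes.

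Against Anakinra, 1 of the 9 genes was called with the combination, a share near that of all genes. Cdkn1a was lower with PLX3397+Anakinra than with Anakinra (log2 difference -0.43, SE 0.12, adjusted p = 0.0219), and 8.10% of all genes were lower in this comparison. The ranges overlapped through combination mouse J09 (40.8 TPM) and Anakinra mouse J06 (38.6 TPM), and the call was lost without Anakinra mouse J05 (adjusted p = 0.0634) or J21 (adjusted p = 0.06) or combination mouse J17 (adjusted p = 0.0808). Bax was 56.9, 51.8, 48.2, 53.4 and 47.6 TPM with Anakinra and 47.4, 47.7, 42.8, 42.9 and 40.7 TPM with the combination, with a log2 difference of -0.21 (adjusted p = 0.0641). It was called without Anakinra mouse J22 (adjusted p = 0.0488) or combination mouse J04 (adjusted p = 0.0493).

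Against PLX3397, 0 of the 9 genes were called with the combination, 0 had an unadjusted p below 0.05, and the unequal-variance test also called 0, where 0.151% of all genes were called. The log2 difference of Cdkn1a between PLX3397+Anakinra and PLX3397 was 0.08 (95% interval -0.18 to 0.33). The interaction, by which the effect of Anakinra would differ with and without PLX3397, was called in 0 of the 9 genes and in 0% of all genes by limma. Without adjustment its p was below 0.05 in 2 genes, a count with no share of all genes to set beside it. It was positive for Mdm2 (0.20) and negative for Phlda3 (-0.21), both with an adjusted p of 0.516 in limma. For Cdkn1a the interval of the interaction was -0.36 to 0.36.

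The related lists were also compared with vehicle in the 2 arms that received PLX3397. Of all genes, 3.23% were higher with PLX3397 and 7.88% with the combination, beside the shares of lower genes given above. Of 45 other p53 targets, 6 were lower and 1 higher with PLX3397 than with vehicle, and 7 were lower and 3 higher with PLX3397+Anakinra (median log2 difference -0.04 in both, against 0.01 over all genes in both). The largest changes with the combination were those of Gdf15 (-0.82), Tap1 (-0.69), Ckap2 (-0.66) and Dcxr (-0.35). Of 23 BCL2 family and caspase genes, 7 were lower and 2 higher with PLX3397, and 8 lower and 2 higher with the combination (medians -0.08 and -0.14), led by Bcl2a1b (-1.39), Bcl2a1d (-0.93), Casp8 (-0.70) and Bmf (-0.57). With Anakinra alone 0 genes of the 7 lists passed the test in limma. At an unadjusted p below 0.05 there were 4 p53 family members and regulators, 5 other p53 targets, 5 BCL2 family and caspase genes, 3 genes of DNA damage sensing and repair, 1 stress response gene, 1 CDK inhibitor and 3 proliferation genes. The share of all genes at this level is not known here.

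The proliferation genes were lower in 4 of 16 with PLX3397 (Aurkb -0.66, Top2a -0.52, Mki67 -0.51 and Plk1 -0.42) and in 10 of 16 with the combination, where 1 was higher (medians -0.34 and -0.41). Of 25 genes of DNA damage sensing and repair, 0 passed with PLX3397 in limma (5 at an unadjusted p below 0.05), and 3 were lower with the combination (among them Chek2 at -0.54 and Topbp1 at -0.18). Cdkn2c, another CDK inhibitor, was lower with PLX3397 (-0.41) and with the combination (-0.56). Of 20 p53 family members and regulators, Kat5 alone was called with PLX3397 (0.15), and Chek2 (-0.54) and Kat5 (0.12) with the combination. Of the 12 stress response genes 0 passed with PLX3397 in limma (3 at an unadjusted p below 0.05), while 2 were lower and 1 higher with the combination (Atf3 -0.82, Psat1 -0.16 and Asns 0.20). Trp53 itself stood at 37.2 ± 1.87 TPM with PLX3397, at 40.1 ± 2.53 TPM with Anakinra and at 37.4 ± 2.05 TPM (SD, 5 mice per group) in mice given both drugs, and was not called against vehicle.

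Cell type markers moved in the same arms. All 8 microglial markers were lower with PLX3397 and with PLX3397+Anakinra than with vehicle, and their sum was 510 to 775 TPM and 466 to 621 TPM, against 1297 to 1474 TPM with Anakinra. Markers of activated phagocytes were lower in 5 of 6 with PLX3397 and in 6 of 6 with the combination. Neuronal markers were higher in 3 of 8 with PLX3397 and in 6 of 8 with the combination, fibroblast markers were higher in 4 of 5 and red blood cell markers lower in 4 of 4 in both arms, and oligodendrocyte progenitor markers were lower in 3 of 4 in both (Cspg4, Pdgfra and Olig1; medians -0.20 and -0.23). Among the vehicle mice J17B and J20B had the lowest fibroblast sums, at 85.9 and 116 TPM against 559 to 693 TPM in the other 3, and these 2 mice also had the lowest Cdkn1a. Mouse J17B further had the lowest phagocyte sum of the vehicle mice (2469 TPM) and their lowest Bax, Bbc3, Phlda3 and Eda2r, and it had their highest Mdm2 (25.3 TPM) and Ccng1 (92.4 TPM). The part of these cell type differences in the levels of the p53 targets was not tested. All 5 vehicle mice, and no others, have an animal number ending in B, and should this letter mark a batch, it cannot be told apart from vehicle treatment.

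Mice of the same group were compared to ask whether the genes rise and fall together from one injured brain to the next. Over the 20 TBI mice, with the mean of each group removed, the 36 pairs of the 9 genes had a median Pearson r of 0.03, with 20 pairs above and 16 below 0. Ccng1 and Trp53inp1 had an r of 0.731 (Spearman rho 0.717, adjusted permutation p = 0.0432 and 0.0427), and Bax and Eda2r an r of 0.704 (rho 0.743, adjusted permutation p = 0.0216 and 0.014). Without the 2 mice farthest from the median of the first gene, r was 0.621 and 0.628. The other 34 pairs did not pass after adjustment over 36 pairs. Among them, Cdkn1a had an r of 0.633 with Phlda3 (rho 0.629, adjusted permutation p = 0.0654 and 0.0732) and of -0.569 with Mdm2 (rho -0.568, adjusted permutation p = 0.0614 and 0.0732). The number of called pairs depended on single mice, which gave 0 pairs when J17B was dropped and 5 when J01B, J18B or J19B was. Both values of a pair come from the same library with its fixed total of TPM.

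**Figure D5:**
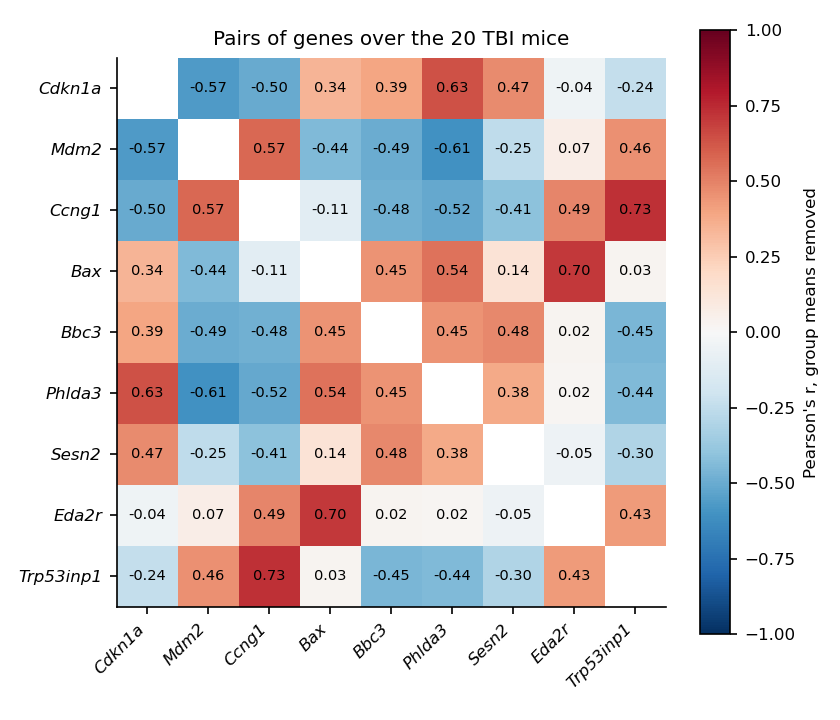
Pearson's r between each pair of the 9 genes over the 20 TBI mice after removal of group means, from blue (negative) to red (positive). Ccng1 with Trp53inp1 and Bax with Eda2r are the most positive pairs, and Mdm2 and Ccng1 are both negative with Cdkn1a, Bbc3 and Phlda3.

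The genes whose pattern over these mice was most like the mean Z-score of the 9 genes were Mcm3 (r = 0.923), which encodes a subunit of the replicative helicase, Adcy7 (r = 0.880), Slc37a2 (r = 0.876), Lima1 (r = 0.869) and Stx11 (r = 0.866). Those most like Cdkn1a were Myh9 (r = 0.866), a nonmuscle myosin, Tbc1d2b (r = 0.859), Akap12 (r = 0.852), Tmem104 (r = 0.846) and Col4a1 (r = 0.842), a collagen of basement membranes. Among all genes tested, the member nearest to Cdkn1a was Phlda3, at rank 351, and over the 9 genes the rank of the nearest other member ran from 101 (Ccng1 for Trp53inp1) to 1593 (Bbc3 for Sesn2). These ranks are descriptions over 20 mice, and each gene of the 9 thus had at least 100 genes outside the group with a closer pattern.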

How the data were processed

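The authors trimmed and mapped paired-end reads of poly-A RNA in CLC Genomics Workbench to mm10 (GRCm38 in the submitters' processing notes) and deposited TPM per gene, with 1 library per mouse. The tables hold no counts, so that the depth is unknown and the precision rests on the spread between mice; the table with rounded values served as an alternative, and a filtered table, which carries the authors' p-values and F values, was not used. Samples were grouped by their labels.

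Genes reaching a mean of 0.5 TPM were fitted in limma 3.58.1 (R 4.3.3) as log2(TPM + 1), with one mean per group, all 24 libraries and a variance trend. All p-values of single genes are two-sided, from limma, adjusted (Benjamini-Hochberg) over 17267 genes; a gene was called at an adjusted p below 0.05. Correlations were tested with 100000 permutations of mice within groups. The members and lists were chosen with earlier results of these data known. From each list at most the 4 called genes with the largest difference are named, and a few of these are not reported here. Promoters and positions came from RefSeq (GRCm38.p6). Alternatives were other pseudocounts, filters, scalings, models, tests and leaving out each mouse.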

Additional observations from a re-analysis of the deposited data

Results flagged for a closer look

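Of the 45 groups of values (9 genes in 5 groups of 4 or 5 mice), 5 held a mouse whose gap to its nearest neighbour was large for the range of its group by Dixon's test. By chance about 1 group in 20 would hold such a mouse. These values were Cdkn1a of PLX3397 mouse J19 (26.4 TPM, below 31.4 TPM), Mdm2 of sham mouse J15 (21.7 TPM, above 19.6 TPM), Bbc3 of PLX3397+Anakinra mouse J09 (8.79 TPM, above 6.76 TPM), Phlda3 of Anakinra mouse J22 (66.2 TPM, below 72.9 TPM) and Trp53inp1 of sham mouse J07 (7.01 TPM, below 9.75 TPM). No mouse stood apart in this way in more than 1 gene. Without mouse J19, Cdkn1a was no longer called lower with PLX3397 (adjusted p = 0.0787 in limma), and without mouse J09, Bbc3 was called lower with the combination than with vehicle (adjusted p = 0.0371).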

How the results depend on the processing

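Over 45 single-gene results and 776 alternatives, 708 kept their direction and their side of the threshold, 57 lost the call, 11 gained it and 0 reversed; rescaling moved the median of all genes by at most 0.03 (log2). The number of members called in vehicle, PLX3397, Anakinra and PLX3397+Anakinra versus sham was 1, 0, 1 and 0 under the stricter rule of ratio and difference, and within 1.5 times the main count elsewhere. These counts include Eda2r, which could not be tested where a mean of 5 TPM was required. Ccng1 lost its call against sham in 9 alternatives with PLX3397, 6 with Anakinra and 8 with the combination; Bax lost it with the combination without mice J03, J04 or sham mouse J16 (adjusted p 0.055 to 0.0989). For PLX3397 versus vehicle, 2 called members became 0 without a filter, with only the compared groups, under the stricter rule and with the unequal-variance test on TPM, and 0 to 2 with a mouse left out. For PLX3397+Anakinra versus vehicle, 1 became 2 with genes of 5 TPM or more, 0 without a filter, under the stricter rule and with the unequal-variance test, and 0 to 2 with a mouse left out. For PLX3397+Anakinra versus Anakinra, 1 became 2 with only the compared groups, 0 under the stricter rule and with the unequal-variance test, and 0 to 2 with a mouse left out. The 2 called pairs became 4 with rescaled TPM and 0 to 5 with a mouse left out, settings for pairs that were chosen after seeing the data. The cause of these shifts was not tested. Vehicle and PLX3397 mice share the digits 01, 19 and 20, whose deviations correlated by 0.173, -0.134 and -0.0656, so that the digits were not taken to pair mice; with a replicate block for them, 1 member was called, Cdkn1a (-0.64, adjusted p = 0.0422), and Mdm2 was not (-0.09, adjusted p = 0.451). Without read counts, the counting error of low genes such as Eda2r is unknown.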
